A study of Mus musculus with 27 samples.

Results

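The comparison here was between 2 sets of undifferentiated control embryonic stem cells (ESCs) that were sequenced for 2 experiments of the same study. The first set, shNT, held 3 libraries and was the control of the Gas41 knockdown. The second set, EB day 0, held 2 libraries, numbered 2 and 3, and was the starting point of embryoid body (EB) differentiation. Members were chosen by their labels, and made up 5 of the 12 RNA-seq libraries and 5 of the 27 samples of the series. All 5 came from J1, a mouse ESC line, and all carried the same control shRNA vector without a target. The cells were kept without feeders on gelatin in medium with serum and LIF at 1000 U/ml, and infected cells were selected with puromycin at 1 µg/ml. The labels give the harvest of knockdown samples as 8 days after infection and no separate time for shNT or EB day 0. The study's methods state biological repeats for its experiments in general, but the labels do not say which libraries were separate cultures, so p-values measure only the spread between these libraries. The set and the experiment it belonged to, with its handling and library preparation, cannot be told apart.

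ESCs in serum and LIF are a mixed culture. Oct4 (Pou5f1), Sox2 and Nanog hold the undifferentiated state, while single cells drift between naive and more advanced states, enter a rare 2-cell-like state marked by Zscan4, or start towards primitive endoderm. Metabolic pathways in these cells respond to the medium and to crowding: Srebf2 drives cholesterol synthesis when sterols are scarce, Hif1a drives glycolytic enzymes when oxygen is low, and p53 drives its targets under DNA damage or stress.

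The libraries held between 59224537 and 72413846 counts, and the 10 most abundant genes took between 6.08% and 7.26% of them. Genes were joined between the tables by Ensembl identifier. Of 23921 genes with a count in both tables, 18134 passed the filter on low counts and were tested. At these depths a count of 0 allowed a level of up to 0.0415 to 0.0506 CPM (counts relative to the library total, the unit of all levels here), from 3 counts and for counting error only.

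Pluripotency genes marked both sets as ESCs. Pou5f1 stood at 1457, 1365 and 1205 CPM in shNT 1, 2 and 3, and at 1026 and 1208 CPM in EB day 0 2 and 3. Sox2 stood at 380.2, 437 and 542 CPM in shNT and at 509 and 529.6 CPM in EB day 0. Nanog stood at 857, 735 and 715 CPM in shNT and at 717 and 768 CPM in EB day 0. In each of these 3 genes the libraries of the 2 sets overlapped. Of 12 core pluripotency genes, 0 passed the test between the sets at any fold by edgeR's quasi-likelihood test, and of 17 naive pluripotency genes 0 did. Of all genes 1.7% passed as higher and 0.667% as lower, so counts of 0 in lists this short do not show that the sets were alike. By the same test 6 core and 5 naive genes had an unadjusted p below 0.05, beside 4429 of all 18134 genes. Both EB day 0 libraries lay above all of shNT in 3 core and 2 naive genes, beside 22.4% of all genes. They lay below all of shNT in 4 and 5, beside 21.6%. DESeq2 passed 2 of the core genes as higher and 2 as lower, and 1 of the naive genes as higher. Over all genes it passed 5.69% as higher and 5.28% as lower. Gas41 itself (Yeats4), the gene targeted in the knockdown experiment and not in these cells, stood at 63.1, 54.9 and 52.2 CPM in shNT and at 43.2 and 45.8 CPM in EB day 0, a log2 fold change of -0.35 (SE 0.12, FDR 0.119).

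Several markers of feeder cells were near 0 in all 5 libraries, and others were not. Dcn and Lum had 0 counts in each, Col3a1 had at most 4 and Col1a2 between 5 and 15. Of the 17 fibroblast and feeder genes 9 were tested, none of which passed by edgeR. DESeq2 passed 1 of the 9 as higher, beside 5.69% of all genes. The summed level of the 9 ran from 365 to 623 CPM in shNT and from 501 to 645 CPM in EB day 0, most of it from Fn1, which ESCs express too. Thy1 stood at 7.30, 9.80 and 12.7 CPM in shNT and at 8.12 and 5.34 CPM in EB day 0. Fbn1 stood at 1.35, 1.38 and 1.34 CPM in shNT and at 2.17 and 2.55 CPM in EB day 0 (log2 fold change 0.79, SE 0.20, FDR 0.0692).

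Every pair of libraries differed by more than sampling noise, the chi-square over genes being 29.8 to 203 times its degrees of freedom. The distances within shNT overlapped those across the sets. The median absolute difference over the 18134 genes was 0.18 on the log2 CPM scale between shNT 1 and 2, 0.19 between shNT 2 and 3, and 0.29 between shNT 1 and 3. The EB day 0 libraries were the closest pair, at 0.15. The 6 pairs across the sets ran from 0.21 to 0.35. shNT 3 was nearer to both EB day 0 libraries, at 0.21 and 0.22, than to shNT 1. The common biological coefficient of variation by edgeR was 15.9% within shNT (n = 3) and 10.3% within EB day 0 (n = 2). For pairs of shNT libraries it was 12.1% for 2 and 3, 13.3% for 1 and 2, and 20.7% for 1 and 3.

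**Figure D1:**
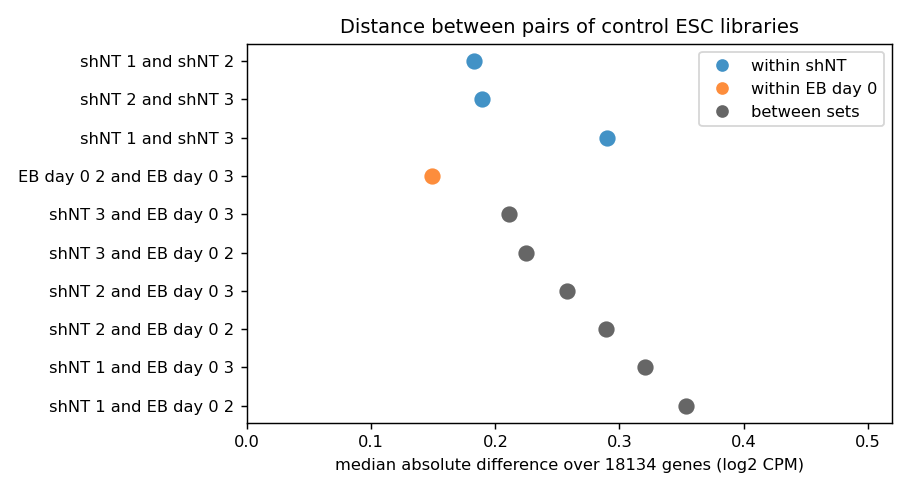
Median absolute difference in log2 CPM over the genes tested (horizontal axis) for each pair of control ESC libraries (vertical axis), coloured by whether the pair lies within shNT, within EB day 0 or across the sets. The pair of shNT 1 and 3 lies at 0.29, beyond the pairs of shNT 3 with EB day 0 at 0.21 and 0.22.

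The largest swing within a set was in the Zscan4 genes, which mark the 2-cell-like state. Zscan4c stood at 94.2, 17.3 and 11.5 CPM in shNT and at 21.6 and 11.2 CPM in EB day 0. Zscan4f stood at 103, 18.96 and 12.0 CPM in shNT and at 22.7 and 11.7 CPM in EB day 0. In both genes shNT 1 was high and the other 4 libraries overlapped. Zscan4b, Zscan4d, Zscan4e and Zscan4-ps2 had the same pattern, with ranges within shNT of 7.95-fold to 8.41-fold, beside 8.20-fold for Zscan4c and 8.55-fold for Zscan4f. These copies share between 46.8% and 94.0% of their exonic 50-base words with other genes, so reads could have been split between them, and the level of a single copy is uncertain. The mean log2 fold changes between the sets were negative, at -1.37 to -1.26, with FDR between 0.310 and 0.353, and turned positive without shNT 1, at 0.12 to 0.25. Eif1a, a translation factor with near copies in the 2-cell-like state, was level, at 305, 277 and 271 CPM in shNT and 294 and 303 CPM in EB day 0.

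Lefty1 and Lefty2, secreted inhibitors of Nodal and also its targets, varied next most within shNT. Lefty1 stood at 9.89, 18.1 and 40.7 CPM in shNT and at 3.79 and 7.62 CPM in EB day 0. Lefty2 stood at 15.6, 26.6 and 68.8 CPM in shNT and at 8.35 and 13.3 CPM in EB day 0. Every shNT library was above both EB day 0 libraries in each gene, but the range within shNT was 4.11-fold for Lefty1 and 4.39-fold for Lefty2. The log2 fold change was -2.01 for Lefty1 (SE 0.54, FDR 0.0783) and -1.77 for Lefty2 (SE 0.54, FDR 0.102), short of the threshold. Without shNT 1 both passed, at -2.37 (FDR 0.00547) and -2.14 (FDR 0.00796), and Lefty1 also without shNT 3, at -1.31 (FDR 0.0206). Nodal, the ligand itself, stood at 87.4, 83.0 and 70.9 CPM in shNT and at 74.2 and 99.9 CPM in EB day 0, with overlapping sets. The 2 Lefty genes share 19.4% and 12.5% of their exonic words with each other.

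Within EB day 0, with Gm and Rik symbols left out, the gene of at least 5 CPM that differed most was Egr1, an immediate early transcription factor of the serum response. It stood at 13.4 and 42.01 CPM in EB day 0 2 and 3, a 3.14-fold difference, with shNT between them at 15.5, 24.7 and 16.5 CPM. Ly6a, the surface antigen Sca-1, stood at 8.27 and 2.70 CPM in EB day 0 and at 6.10, 5.25 and 3.55 CPM in shNT. Cd84, a surface receptor of the SLAM family, stood at 15.3 and 5.09 CPM in EB day 0 and at 12.1, 9.41 and 5.41 CPM in shNT. In all 3 genes the sets overlapped. Rps12-ps6, at 7.91 and 18.4 CPM in EB day 0, shares 100% of its exonic words with other genes, and its reads cannot be assigned to 1 copy. Rnf213, a large ubiquitin ligase, stood at 26.4 and 12.2 CPM in EB day 0 and at 10.0, 10.6 and 16.1 CPM in shNT.

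Genes that swung within a set were few among those with a mean of 5 CPM or more. Of 11052 such genes, 97 had a range of 2-fold or more within shNT, 19 differed by 2-fold or more within EB day 0, and 8 did both. With 3 libraries a range is wider than with 2, so these counts do not rank the sets.

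**Figure D2:**
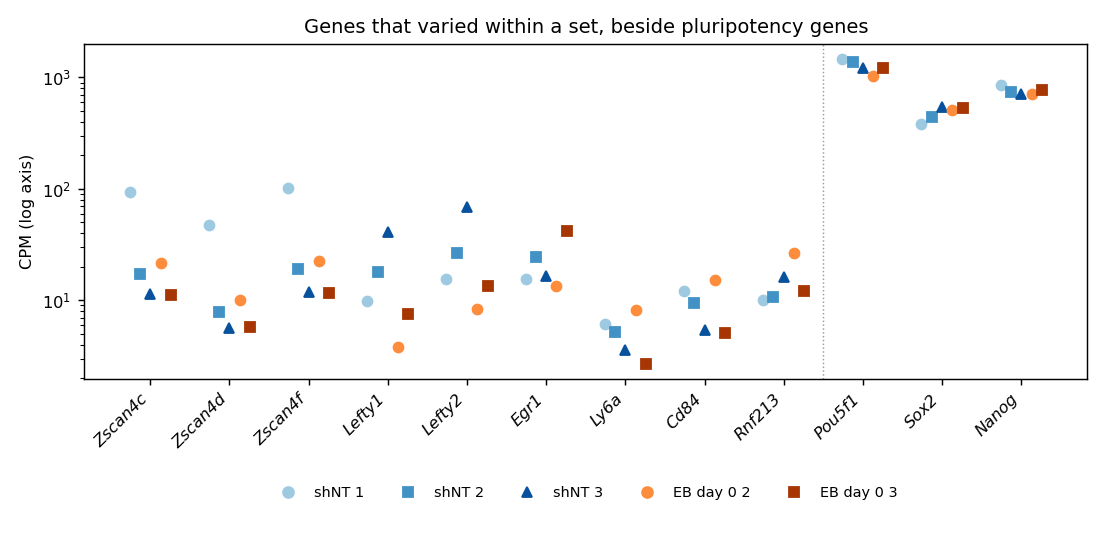
Level in CPM (log axis) of genes with large differences within a set and, right of the dotted line, of 3 pluripotency genes, with 1 point for each control ESC library. shNT 1 stands apart in the Zscan4 genes, shNT 3 in Lefty1 and Lefty2 and EB day 0 3 in Egr1, while the pluripotency genes lie close together in all 5 libraries.

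Between the sets, 83 genes were called higher in EB day 0 and 22 lower, with a difference of at least 2-fold and an FDR of at most 0.05, where FDR is the Benjamini-Hochberg adjusted p of edgeR's quasi-likelihood test. They were 0.458% and 0.121% of the genes tested. At any fold, 309 genes (1.7%) passed as higher and 121 (0.667%) as lower. Both EB day 0 libraries lay above all shNT libraries in 22.4% of the genes tested and below all of them in 21.6%. The number of calls changed with the libraries in the fit. Without shNT 1, 185 genes were called, and without shNT 3, 322, but without shNT 2 or without EB day 0 2 only 1 gene was called, the same in each, and without EB day 0 3 there were 38. The fits without EB day 0 2 or 3 leave 1 library in that set, which is assumed to vary like the shNT libraries. Of the 105 called genes 103 had a value in each of these 5 fits and kept their direction in all of them, and the other 2 had no value in some. Log2 fold changes could stay about as large where calls were lost: without shNT 2, Fat1 was at 1.54 and Malat1 at 1.39. At any fold, 3.74% of genes passed as higher and 2.18% as lower without shNT 1, and 10.1% and 9.07% without shNT 3. The share of calls that were higher, 79.0%, fell to 57.0% when the trend of level with gene length and GC content was removed from each library.

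That gene was 2810429I04Rik, a long noncoding RNA of no known role stated in the files, on chromosome 13 (mm9, 3477489 to 3493644, plus strand, 3 exons), which the Rik symbol puts outside the naming rule and which was chosen after its values were seen. It stood at 34.0, 27.4 and 37.7 CPM in shNT and at 282 and 318 CPM in EB day 0. Neither set came near the other, and the mean was 9.08-fold higher in EB day 0 (log2 fold change 3.18, SE 0.14, FDR 5.41e-05). Without any 1 library its log2 fold change stayed between 3.06 and 3.27 and its FDR at 0.00168 or less. On the scale of all 12 RNA-seq libraries it stood at 259 and 203 CPM at EB day 6, from the same table as EB day 0, and at 20.7 to 29.7 CPM in the 5 Gas41 knockdown libraries. The 4 libraries of the EB experiment were thus high and the 8 of the knockdown experiment low.

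The start of this gene is shown because it is the 1 difference that was called without each library in turn, from 250 bases before to 50 after the RefSeq start (GRCm38.p6, chr13:3477982-3478281, plus strand). No motif was searched in it, so it carries no capitals.
2810429I04Rik: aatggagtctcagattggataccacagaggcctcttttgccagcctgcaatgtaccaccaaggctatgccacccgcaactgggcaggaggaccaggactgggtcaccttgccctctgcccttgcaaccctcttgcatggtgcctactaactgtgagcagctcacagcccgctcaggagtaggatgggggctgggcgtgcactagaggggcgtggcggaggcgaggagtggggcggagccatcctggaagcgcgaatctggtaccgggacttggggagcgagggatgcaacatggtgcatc

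Cmah, the hydroxylase that turns the sialic acid Neu5Ac into Neu5Gc and also lies on chromosome 13, had the next smallest p. It stood at 3699, 3991 and 5125 CPM in shNT and at 11687 and 12870 CPM in EB day 0. The sets were far apart beside the spread within them, with a log2 fold change of 1.52 (SE 0.14, FDR 0.0182). It kept a log2 fold change of 1.43 to 1.66 without each library, with FDR above the threshold at 0.145 without shNT 2 and at 0.0665 without EB day 0 2. At EB day 6 it stood at 12412 and 9011 CPM and in the 5 knockdown libraries at 2530.5 to 3984 CPM, so that it too was high in the EB experiment and low in the knockdown experiment.

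Nuclear noncoding RNAs were among the genes called higher in EB day 0. Malat1, a nuclear speckle RNA, stood at 53.8, 46.8 and 47.9 CPM in shNT and at 160.5 and 106 CPM in EB day 0 (log2 fold change 1.43, SE 0.16, FDR 0.0271). Neat1, the scaffold of paraspeckles, stood at 25.6, 26.3 and 31.8 CPM in shNT and at 57.2 and 58.8 CPM in EB day 0 (log2 fold change 1.05, SE 0.12, FDR 0.0271). Xist, the RNA that coats the inactive X chromosome, was low throughout, at 0.303, 0.218 and 0.207 CPM in shNT and at 2.22 and 0.864 CPM in EB day 0 (log2 fold change 2.67, SE 0.44, FDR 0.0316). All 3 were higher in both EB day 0 libraries than in any shNT library, but EB day 0 2 had 2.52-fold more Xist than EB day 0 3. Xist shares 11.5% of its exonic words with its antisense gene Tsix, and strand was not stated for the counting. The median over genes of the X chromosome was 0.03, and over the autosomes it ran from -0.03 to 0.06.

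Several very long genes were called higher in EB day 0. Fat1, a giant cadherin, stood at 84.9, 109 and 135 CPM in shNT and at 363 and 276 CPM in EB day 0 (log2 fold change 1.54, SE 0.19, FDR 0.0271). Ahnak, a giant scaffold protein, stood at 39.7, 51.4 and 52.6 CPM in shNT and at 164 and 104 CPM in EB day 0 (log2 fold change 1.48, SE 0.19, FDR 0.0271). Ttn, which encodes the muscle protein titin, stood at 9.03, 7.80 and 6.46 CPM in shNT and at 35.5 and 17.3 CPM in EB day 0 (log2 fold change 1.77, SE 0.27, FDR 0.0301). In each gene the sets did not overlap.

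Length moved with the difference over all genes. The median log2 fold change was -0.21 for genes with up to 1000 exonic bases, -0.16 up to 2000, -0.03 up to 4000, 0.12 up to 7000 and 0.30 above 7000. The genes that passed at any fold had a median exonic length of 6250.5 bases when higher and 2085 bases when lower, against 3039.5 bases over all genes tested with a length. The same trend ran within shNT, where shNT 3 exceeded shNT 1 by a median of 0.27 in the longest genes and fell below it by 0.23 in the shortest. After that trend and the trend with GC content were removed from each library, 53 genes were called higher and 40 lower, of which 40 and 15 were among the calls above. Fat1 kept a log2 fold change of 1.11 (FDR 0.00517), Ahnak came to 0.95 (FDR 0.0248) and Ttn to 0.48 (FDR 0.424). 2810429I04Rik kept 2.93 (FDR 2.70e-05), Cmah 1.18 (FDR 0.0104) and Malat1 1.18 (FDR 0.0203), while Neat1, with 20771 exonic bases, came to 0.51 (FDR 0.0502) and was no longer called. Of the 2149 genes with over 7000 exonic bases 27 (1.26%) were called higher and 3 (0.14%) lower, beside 0.458% and 0.121% of all genes tested. The part of gene length in single calls beyond these values was not tested.

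**Figure D3:**
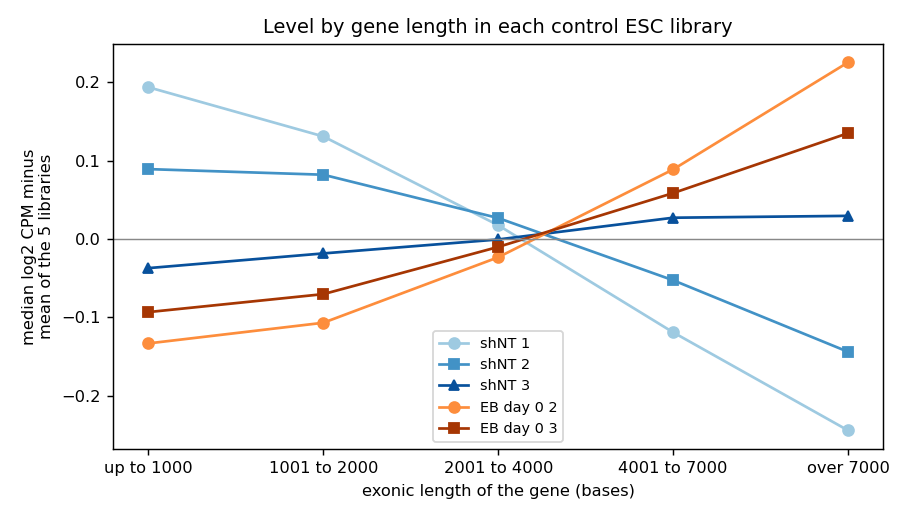
Median deviation of log2 CPM from the mean of the 5 libraries (vertical axis) for genes grouped by exonic length in bases (horizontal axis), with 1 line for each control ESC library. Long genes were lowest in shNT 1, at -0.24, and highest in EB day 0 2, at 0.23, with shNT 3 at 0.03.

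Also called higher were 4 nuclear genes that share sequence with the mitochondrial genome, 3 of them annotated as pseudogenes and Gm10222 as protein coding. They were named after their values were seen. Gm13340 stood at 1372, 1262 and 1531 CPM in shNT and at 3613 and 2322 CPM in EB day 0 (log2 fold change 1.10, SE 0.17, FDR 0.0302). Gm13341, Gm13339 and Gm10222 had log2 fold changes of 1.09, 1.26 and 1.19. After the trends with length and GC were removed, Gm13339 (FDR 0.0742) and Gm10222 (FDR 0.0567) were no longer called. Of the exonic words of these 4 genes, 27.5% in Gm13340, 36.0% in Gm13341, 17.6% in Gm13339 and 100% in Gm10222 occur in the mitochondrial genome. The reads of Gm10222 cannot be told apart from mitochondrial transcripts, and in the other 3 this holds for the shared words alone. The mitochondrial genes themselves were not in the joined tables.

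Sox21, Neurod1 and Id2 were also called higher in EB day 0. Sox21, a SoxB transcription factor, stood at 3.18, 2.31 and 2.17 CPM in shNT and at 6.99 and 8.17 CPM in EB day 0 (log2 fold change 1.57, SE 0.20, FDR 0.0271). Neurod1, a proneural transcription factor, stood at 3.93, 5.92 and 4.66 CPM in shNT and at 9.47 and 17.8 CPM in EB day 0 (log2 fold change 1.49, SE 0.26, FDR 0.0383). Neither gene's sets overlapped, and both EB day 0 libraries were above all of shNT. Id2, a helix-loop-helix inhibitor induced by BMP, stood at 5.54, 7.18 and 4.37 CPM in shNT and at 12.5 and 11.8 CPM in EB day 0 (log2 fold change 1.09, SE 0.20, FDR 0.0415).

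The next named genes had a wide range of levels. Ano3, a member of the TMEM16 family, Vgll3, a cofactor of TEAD factors, Slc18a2, the vesicular monoamine transporter, and Tmcc3, a transmembrane protein, had log2 fold changes of 1.60, 1.52, 1.504 and 1.46, with FDR between 0.0288 and 0.0498. Of these Ano3 reached 5.56 CPM in EB day 0 and the other 3 at most 1.65 CPM. Lama1, the alpha 1 chain of laminin, stood at 17.4, 28.2 and 23.9 CPM in shNT and at 55.1 and 47.0 CPM in EB day 0 (log2 fold change 1.14, SE 0.18, FDR 0.0316). Cyr61, a matrix protein of the serum response, stood at 6.67, 5.13 and 4.18 CPM in shNT and at 10.7 and 11.2 CPM in EB day 0 (log2 fold change 1.04, SE 0.19, FDR 0.0426). Lif, the cytokine that the medium also supplies, stood at 2.66, 2.89 and 2.88 CPM in shNT and at 5.34 and 6.21 CPM in EB day 0 (log2 fold change 1.04, SE 0.16, FDR 0.0301), and was named after its values were seen. After the trends with length and GC were removed, Lama1 came to 0.82 (FDR 0.0395), Lif to 0.97 (FDR 0.0315) and Tmcc3 to 1.27 (FDR 0.0639). These were no longer called, while Ano3, Vgll3, Slc18a2 and Cyr61 still were.

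**Figure D4:**
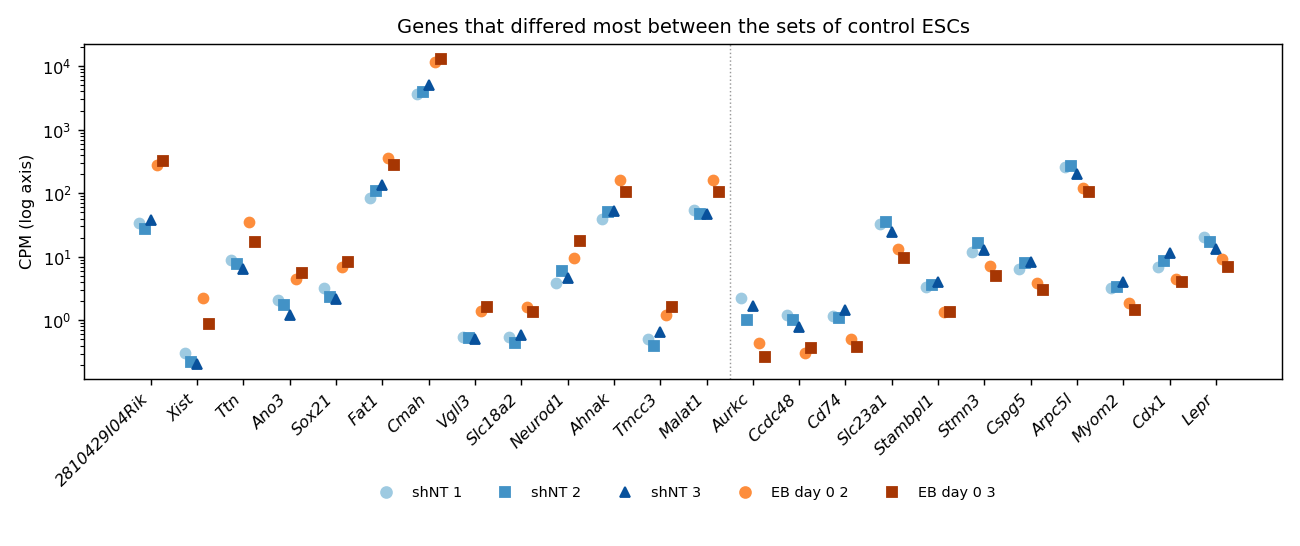
Level in CPM (log axis) of 2810429I04Rik and of the 12 named genes called higher (left of the dotted line) and 11 of those called lower (right) in EB day 0, with 1 point for each control ESC library. In each gene the 2 EB day 0 points lie on 1 side of the 3 shNT points, and the gap between the sets is widest in 2810429I04Rik.

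Of the named genes lower in EB day 0, 3 that stood higher in the knockdown libraries than in shNT are given here. Other named genes called lower went either way there, on the scale of all 12 libraries. Ccdc48 was higher, at 3.47 to 4.65 CPM against 0.76 to 1.19 CPM in shNT. Stambpl1 was lower, at 0.88 to 2.06 CPM against 3.25 to 3.93 CPM in shNT. Cdx1 was lower too, at 1.37 to 5.45 CPM against 6.73 to 11.1 CPM in shNT. Arpc5l, a subunit of the Arp2/3 actin-nucleating complex, stood at 259.9, 266 and 203 CPM in shNT and at 119 and 104 CPM in EB day 0 (log2 fold change -1.12, SE 0.14, FDR 0.0271). Slc23a1, a vitamin C transporter, stood at 33.4, 34.8 and 24.9 CPM in shNT and at 13.2 and 9.51 CPM in EB day 0 (log2 fold change -1.45, SE 0.20, FDR 0.0274). Lepr, the leptin receptor, stood at 20.4, 16.9 and 13.2 CPM in shNT and at 9.31 and 6.88 CPM in EB day 0 (log2 fold change -1.05, SE 0.21, FDR 0.0445). In all 3 genes shNT 3 was the lowest shNT library and nearest to EB day 0. On the scale of all 12 libraries, Arpc5l stood at 103 and 92.6 CPM at EB day 6 and at 477 to 795 CPM in the knockdown libraries, and Slc23a1 at 9.94 and 7.80 CPM and at 88.5 to 154 CPM. Lepr stood at 4.72 and 3.66 CPM at EB day 6 and at 41.5 to 80.3 CPM in the knockdown libraries. The knockdown libraries were compared with the same shNT libraries in the study, so these levels are given side by side and no relation between the comparisons was tested.

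A further 8 named genes were called lower in EB day 0. Aurkc, a kinase of meiotic cells, stood at 2.22, 1.02 and 1.66 CPM in shNT and at 0.445 and 0.267 CPM in EB day 0 (log2 fold change -2.18, SE 0.41, FDR 0.0431), and shares 77.6% of its exonic words with Gm12463. Cdx1, a caudal homeobox factor induced by Wnt, stood at 6.98, 8.65 and 11.5 CPM in shNT and at 4.52 and 3.94 CPM in EB day 0 (log2 fold change -1.09, SE 0.22, FDR 0.0444). Stambpl1, a deubiquitinase, stood at 3.37, 3.56 and 4.08 CPM in shNT and at 1.35 and 1.37 CPM in EB day 0 (log2 fold change -1.43, SE 0.19, FDR 0.0274). The sets did not overlap in any of these genes. Ccdc48, Cd74 (the invariant chain of MHC class II), Stmn3 (a microtubule regulator), Cspg5 (a neural proteoglycan) and Myom2 (a muscle M-band protein) had log2 fold changes of -1.59, -1.503, -1.18, -1.14 and -1.11, with FDR between 0.0316 and 0.0498. After the trends with length and GC were removed, Cdx1 (-0.99), Stmn3 (-0.98), Ccdc48 (FDR 0.0576) and Cd74 (FDR 0.0605) were no longer called.

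The medians of the gene lists lay within 2-fold of no difference. Cholesterol synthesis genes were lower in EB day 0, with 3 of 24 past the FDR threshold at any fold as lower, beside 0.667% of all genes, and 0 as higher. Both EB day 0 libraries lay below all of shNT in 20 of the 24, against 21.6% of all genes tested, and the median log2 fold change was -0.46, against 0.01 over all genes. Insig1, which holds SREBP in the endoplasmic reticulum and is also its target, stood at 68.7, 63.5 and 85.0 CPM in shNT and at 38.7 and 41.2 CPM in EB day 0 (log2 fold change -0.86, SE 0.14, FDR 0.0316). Sc4mol, a sterol C4 oxidase, stood at 140.1, 123 and 149 CPM in shNT and at 84.0 and 87.5 CPM in EB day 0 (log2 fold change -0.68, SE 0.11, FDR 0.0316). Cyp51, the lanosterol demethylase, stood at 60.1, 54.3 and 70.3 CPM in shNT and at 35.9 and 36.8 CPM in EB day 0 (log2 fold change -0.76, SE 0.13, FDR 0.0350). The sets did not overlap in any of the 3, and the 2 EB day 0 libraries lay close together. Srebf2, the factor that drives the list, was at 0.05 (FDR 0.884). The count past the threshold was 12 without shNT 1 (2.18% of all genes) and 10 without shNT 3 (9.07%). Without shNT 2 it was 0, where 0 of all genes passed as lower. Over the fits without 1 library the median lay between -0.53 and -0.36. After the trends with length and GC were removed, 6 members passed, beside 0.971% of all genes. In the RefSeq promoters of the 16 members that matched, the sterol regulatory element TCACNCCAC, searched on both strands, did not occur, and it occurred in 1.13% of the promoters of tested genes, which says only that these letters are not in these windows.

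Genes of hypoxia and glycolysis were also lower, with 3 of 33 past the threshold as lower, beside 0.667% of all genes, and 0 as higher. Both EB day 0 libraries lay below all of shNT in 13 members, beside 21.6% of all genes, and above all of shNT in 0, and the median log2 fold change was -0.21. Ldha, lactate dehydrogenase A, stood at 772, 922 and 891 CPM in shNT and at 526 and 560.3 CPM in EB day 0 (log2 fold change -0.67, SE 0.11, FDR 0.0316). Aldoa, an aldolase, stood at 691, 829.8 and 829.8 CPM in shNT and at 507 and 506 CPM in EB day 0 (log2 fold change -0.63, SE 0.11, FDR 0.0383). Pgk1, phosphoglycerate kinase 1, stood at 367, 426 and 434 CPM in shNT and at 247 and 290.3 CPM in EB day 0 (log2 fold change -0.60, SE 0.12, FDR 0.0435), and shares 42.6% of its exonic words with Pgk1-rs7. In none of these 3 did the sets overlap. Tpi1 had a log2 fold change of -0.78 (FDR 0.0830). Aldoc, Bnip3, Egln3 and Ankrd37 had larger falls, at -1.27, -1.20, -0.91 and -0.80, which did not pass the threshold either. Vegfa and Slc2a1, which are Hif1 targets too, were at -0.01 (FDR 0.974) and -0.07 (FDR 0.817). Of the 33 members 5 were above 0. The count past the threshold as lower was 10 without shNT 1 (2.18% of all genes) and 9 without shNT 3 (9.07%). Without shNT 2 it was 0, where 0 of all genes passed as lower.

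The promoters of the 3 glycolytic genes that passed are shown, from RefSeq (GRCm38.p6), from 250 bases before to 50 after the start, with capitals on each match to the core of the hypoxia response element, ACGTG, on either strand. CACGTG, the E-box, matches on both strands and is counted on each. Ldha (chr7:46845554-46845853, plus strand) has 5 matches, Pgk1 (chrX:106186850-106187149, plus strand) 2 and Aldoa (chr7:126800398-126800697, minus strand) 0. A match is a description of the letters and not a binding site.
Ldha: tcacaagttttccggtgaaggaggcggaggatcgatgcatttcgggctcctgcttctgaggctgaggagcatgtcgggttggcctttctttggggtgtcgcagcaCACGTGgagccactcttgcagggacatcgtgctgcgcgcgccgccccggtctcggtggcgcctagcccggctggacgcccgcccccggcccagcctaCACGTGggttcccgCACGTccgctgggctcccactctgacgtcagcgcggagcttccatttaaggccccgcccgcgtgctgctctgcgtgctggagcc
Aldoa: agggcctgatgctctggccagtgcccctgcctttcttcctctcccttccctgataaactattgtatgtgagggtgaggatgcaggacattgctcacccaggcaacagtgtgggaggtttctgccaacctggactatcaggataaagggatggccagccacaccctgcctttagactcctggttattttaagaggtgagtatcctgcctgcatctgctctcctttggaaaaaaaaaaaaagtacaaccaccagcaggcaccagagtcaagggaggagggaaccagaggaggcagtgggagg
Pgk1: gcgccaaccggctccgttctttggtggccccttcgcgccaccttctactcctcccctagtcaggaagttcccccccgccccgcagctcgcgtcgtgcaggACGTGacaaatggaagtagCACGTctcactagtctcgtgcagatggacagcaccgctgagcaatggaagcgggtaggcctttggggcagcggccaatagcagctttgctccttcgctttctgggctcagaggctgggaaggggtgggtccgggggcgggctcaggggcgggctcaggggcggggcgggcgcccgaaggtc
Of the 30 members of the list with a RefSeq promoter, 17 (56.7%) held the core, against 24.7% of 12076 promoters of tested genes and 19.7% of all 27025 promoters. Among the 17 were members that differed little, such as Slc2a1 and Gapdh, at -0.17 (FDR 0.456).

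Targets of p53 were higher in EB day 0, with 3 of 22 past the threshold as higher, beside 1.7% of all genes, and 0 as lower. Both EB day 0 libraries lay above all of shNT in 13 of them and below all of shNT in 0, beside 22.4% above over all genes, and the median log2 fold change was 0.43. Trp53inp1, a stress-induced cofactor of p53, was the 1 member called at 2-fold. It stood at 118, 125 and 132 CPM in shNT and at 218 and 325 CPM in EB day 0 (log2 fold change 1.12, SE 0.15, FDR 0.0274). Zmat3, an RNA-binding protein, stood at 77.2, 82.8 and 109 CPM in shNT and at 148 and 166 CPM in EB day 0 (log2 fold change 0.81, SE 0.15, FDR 0.0390). Ccng1, cyclin G1, stood at 268, 261 and 206 CPM in shNT and at 361 and 474 CPM in EB day 0 (log2 fold change 0.77, SE 0.15, FDR 0.0431). EB day 0 3 was the higher of the 2 libraries in each of these 3. After the trends with length and GC were removed, 6 members passed as higher, beside 0.937% of all genes. Trp53inp1 then came to 0.84 (FDR 0.0395) and was no longer called at 2-fold. Cdkn1a and Bax, the arrest and death targets best known in other cells, were at 0.11 (FDR 0.697) and -0.09 (FDR 0.696), and Mdm2, the p53 ubiquitin ligase, at 0.49 (FDR 0.0957). The count past the threshold was 9 without shNT 1 (3.74% of all genes) and 8 without shNT 3 (10.1%). Without shNT 2 it was 0, where 1 of all genes passed as higher. The median was 0.68 without EB day 0 2 and 0.22 without EB day 0 3.

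**Figure D5:**
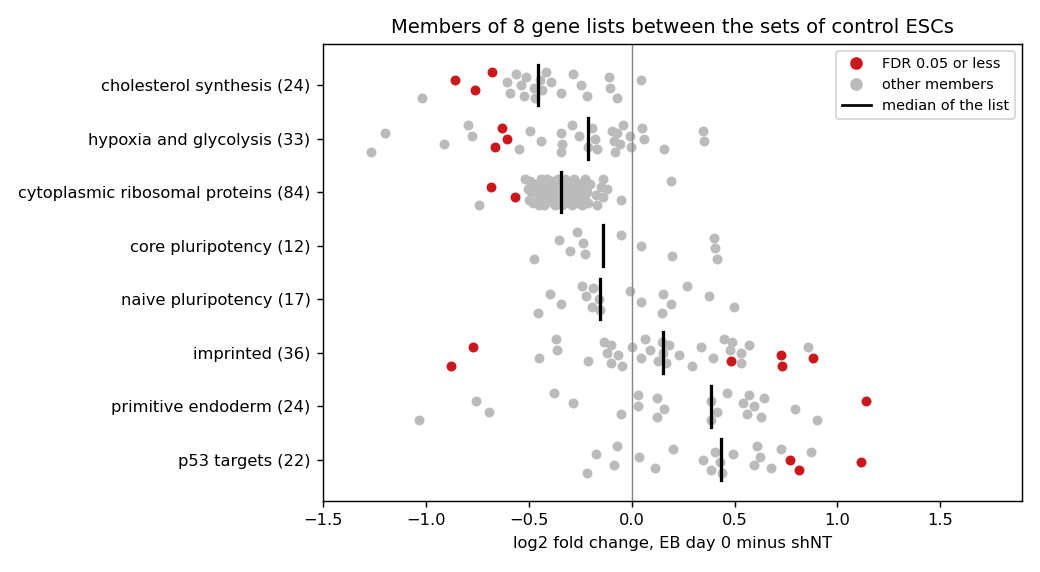
Log2 fold change of EB day 0 against shNT (horizontal axis) for each tested member of 8 gene lists (vertical axis, number of members in brackets), with members past an FDR of 0.05 in red and the median of each list as a black bar. Medians run from -0.46 for cholesterol synthesis to 0.43 for p53 targets, and no pluripotency gene is red.

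Ribosomal protein genes lay lower as a group. Of 84 cytoplasmic ribosomal protein genes 76 were lower in both EB day 0 libraries than in all of shNT, beside 21.6% of all genes, with a median log2 fold change of -0.35 and a median exonic length of 1444 bases. Of these, Rpl41 (-0.68, SE 0.13, FDR 0.0431) and Rpl38 (-0.57, SE 0.11, FDR 0.0446) passed the test. The count was 7 without shNT 1 (2.18% of all genes) and 61 without shNT 3 (9.07%). Without shNT 2 it was 0, where 0 of all genes passed as lower. After the trends with length and GC were removed, the median was -0.22, beside -0.03 over all genes, and 3 of the 84 were above 0. The part of gene length in this shift beyond these values was not tested.

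Imprinted genes went both ways, with 4 of 36 past the threshold as higher and 2 as lower, beside 1.7% and 0.667% of all genes. Meg3, the maternal noncoding RNA of the Dlk1 domain, stood at 44.0, 44.6 and 50.4 CPM in shNT and at 105 and 65.9 CPM in EB day 0 (log2 fold change 0.88, SE 0.17, FDR 0.0435). Its neighbours Rian and Mirg were at 0.09 (FDR 0.716) and 0.29 (FDR 0.289). H19, the maternal RNA beside Igf2, stood at 6.34, 8.06 and 8.68 CPM in shNT and at 4.23 and 4.15 CPM in EB day 0 (log2 fold change -0.88, SE 0.18, FDR 0.0445), while Igf2 was at -0.10 (FDR 0.808). The paternal genes Peg10, Zdbf2 and Mest were higher by 0.73, 0.73 and 0.48 on the log2 scale, with FDR of 0.0316, 0.0410 and 0.0451, and the maternal gene Phlda2 was at -0.77 (FDR 0.0316). Mest shares 27.9% of its exonic words with Copg2. The exons of Meg3 span 18089 bases and those of Zdbf2 12659. After the trends with length and GC were removed, Meg3 came to 0.35 (FDR 0.205) and Zdbf2 to 0.33 (FDR 0.0773), and neither passed. Peg10, Mest, H19 and Phlda2 still passed. The list then had 2 members higher and 3 lower, beside 0.937% and 0.971% of all genes. Without shNT 1 the counts were 7 and 3 (3.74% and 2.18% of all genes). Without shNT 3 they were 11 and 4 (10.1% and 9.07%), the 4 of 36 being near that share. Without shNT 2 they were 0 and 0, where 1 and 0 of all genes passed.

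Of 13 genes of DNA methylation 1 passed as higher. For this list and the lists that follow it here, the share of all genes that passed as higher was 1.7%. Tet1, which oxidises 5-methylcytosine, stood at 314, 319.8 and 466 CPM in shNT and at 781 and 602 CPM in EB day 0 (log2 fold change 0.91, SE 0.18, FDR 0.0439), and its exons span 14710 bases. It came to 0.48 (FDR 0.0659) after the trends with length and GC were removed. Of 4 tested genes of the Y chromosome, which J1 carries, Ddx3y passed, at 40.7, 41.8 and 46.4 CPM in shNT and at 70.6 and 74.6 CPM in EB day 0 (log2 fold change 0.76, SE 0.10, FDR 0.0274). Eif2s3y and Uty, on the same chromosome, were at 0.14 (FDR 0.5199) and 0.01 (FDR 0.963), and Ddx3y came to 0.48 (FDR 0.0539) after the same correction. Mki67, a marker of cycling cells, was the 1 of 24 cell cycle genes that passed, at 123, 141 and 189.9 CPM in shNT and at 302 and 238 CPM in EB day 0 (log2 fold change 0.83, SE 0.18, FDR 0.0498), and its exons span 10075 bases. It came to 0.53 (FDR 0.0539) after the correction, so that none of Tet1, Ddx3y and Mki67 then passed.

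Of the other lists, primitive endoderm had 1 of 24 genes past the threshold as higher, Lama1, beside 1.7% of all genes. The median of the list was 0.39. Both EB day 0 libraries lay above all of shNT in 12 members, beside 22.4% of all genes, and below in 3, beside 21.6%. After the trends with length and GC were removed, the median was 0.24, beside -0.03 over all genes, and Lama1 came to 0.82 (FDR 0.0395). The transcription factors Gata4, Gata6 and Sox17 of this list stood at 2.17 CPM or less in every library with FDR between 0.278 and 0.696. Without shNT 1 this list had 2 of 24 genes higher and 2 lower (3.74% and 2.18% of all genes). Without shNT 3 it had 5 and 1 of 22 (10.1% and 9.07%). Without shNT 2 it had 0 and 0, where 1 and 0 of all genes passed. Zfp750 was the 1 of 11 tested genes of the 2-cell-like list that passed, at 4.87, 5.89 and 5.35 CPM in shNT and at 8.53 and 15.1 CPM in EB day 0 (log2 fold change 1.13, SE 0.23, FDR 0.0439). Id2 was the 1 of 10 BMP targets, Cyr61 the 1 of 18 immediate early genes and Cdx1 the 1 of 15 Wnt targets that passed. Zfp750, Id2 and Cyr61 were higher, beside 1.7% of all genes, and Cdx1 was lower, beside 0.667%. With the pluripotency and feeder lists, 18 lists had 0 genes past the threshold by edgeR. The others were formative epiblast, LIF and Stat3 targets, ERK targets, Nodal targets, amino acid response, unfolded protein response, heat shock, interferon, mesoderm, neural, trophoblast, germline, metallothionein, histone and small noncoding RNA. Of their 342 tested members 62 had an unadjusted p below 0.05 by edgeR. This pools unlike lists, from 0 of 65 histone genes to 7 of 12 metallothionein and oxidative stress genes. In the latter list both EB day 0 libraries lay above all of shNT in 7 members, beside 22.4% of all genes, and below in 1, beside 21.6%. DESeq2 passed 18 of the 342 as higher and 9 as lower, beside 5.69% and 5.28% of all genes. Over all 18134 genes 4429 had an unadjusted p below 0.05.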

How the data were processed

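Total RNA from J1 ESCs was sequenced from TruSeq libraries. Per the labels and the study's methods, the authors aligned reads to mm9 with TopHat2 2.0.10 and deposited raw HTSeq counts per Ensembl gene. Deposited log fold changes, p-values and FDR of the authors' own comparisons were not used. Whether counting used strand is not given in the sources used here. The members and gene lists were chosen with earlier results of these data known.

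The 2 tables were joined by gene identifier. The 1886 genes listed only in the knockdown table and the 928 only in the EB table were left out. Groups came from the labels. Counts were tested in R 4.3.3 with edgeR 4.0.16 (filterByExpr with a minimum count of 10 and a total of 15, TMM scaling, quasi-likelihood test, 3 shNT against 2 EB day 0 libraries) and adjusted by Benjamini-Hochberg. DESeq2 1.42.0 was an alternative. The method was tested on simulated data. An exact permutation test of 3 against 2 libraries cannot go below 0.1. Named genes were, without Gm and Rik symbols and the like, the 12 called genes with the largest change in each direction (at least 1 CPM), the 8 with the largest difference within each set (at least 5 CPM), up to 4 called or else 2 leading members of each list, and Yeats4, Pou5f1, Sox2 and Nanog. Other names were chosen after their values were seen. Exonic words are the 50-base sequences of a gene's exons, shared where they occur in another gene. Exons came from the GENCODE annotation of mm9. Some named genes are not reported here.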

Additional observations from a re-analysis of the deposited data

How the results depend on the processing

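The log2 fold changes of single named genes were compared with their values under the alternatives. Of these comparisons 1365 kept direction and side of the threshold (2-fold and FDR), 184 lost the threshold, 18 passed it anew and 32 reversed. The count of 105 calls (83 higher, 22 lower) was within 1.5 times of its value with other scaling, a 1 CPM filter, DESeq2 (112), halved counts and absent genes taken as 0. It was 174 (50 lower) with no filter, 287 (203 and 84) with edgeR's exact test, 1 (1 and 0) at an FDR of 0.01 or with the 2-fold change tested directly, 227 (162 and 65) at an FDR of 0.1, 430 (309 and 121) at any fold, 10 (6 and 4) at 4-fold and 37 (30 and 7) with the spread taken from 12 libraries. Leaving out 1 library gave 1 to 322 calls, 1 to 210 higher and 0 to 112 lower. Chosen after seeing the data, length and GC offsets gave 53 higher and 40 lower. The distances within and across the sets and the chromosome medians moved by less than their spread. The cause of these shifts was not tested, other than that stricter thresholds pass fewer genes.

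Numbers 2 and 3 occur in both sets, and the labels do not say whether same-numbered libraries belong together. Across genes, the difference of shNT 2 from 3 was uncorrelated with that of EB day 0 2 from 3 (Pearson's r 0.01, Spearman's rho -0.07). This correlation cannot show whether same-numbered libraries shared a culture or a batch. With the number as a replicate block 299 genes were called (203 and 96). Libraries 2 and 3 alone gave 185 (128 and 57), and 304 (207 and 97) with the replicate block. Offsets with the replicate block gave 63 lower.

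Most reversed values were those of genes that varied within a set, with Nanog and Eif2s3y near no difference in each fit. With the replicate block, Zscan4f, Zscan4b, Zscan4d, Zscan4-ps2, Zscan4c and Zscan4e turned to log2 fold changes of 0.12, 0.22, 0.19, 0.077, 0.15 and 0.12. With libraries 2 and 3 alone, which is also the fit without shNT 1, they were 0.15, 0.25, 0.23, 0.12, 0.20 and 0.17, the highest without any 1 library, against lowest values of -1.94, -1.81, -1.83, -1.94, -1.88 and -1.91. Nanog was at 0.033 in these fits, with -0.12 as the lowest. Leaving out 1 library moved Egr1 from -0.52 to 1.14, Ly6a from -0.89 to 0.72, Cd84 from -0.83 to 0.75, Rps12-ps6 from -0.25 to 0.98, Rnf213 from -0.013 to 1.09, Gm16424 from -0.17 to 1.64 and Gm7711 from -0.12 to 1.42, by which EB day 0 library was left out. With length and GC offsets Cd84 was at -0.056 and Eif2s3y at -0.13. Counting error is widest for genes under 1 CPM.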
